A study of Mus musculus with 2 samples.

Results

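Signalling from the type I interferon receptor was followed through 8 genes of 27998 in the feature table, each matched by its symbol to 1 row. They are Ifnar1 and Ifnar2, the receptor chains, Jak1 and Tyk2, the kinases bound to them, Stat2 and Irf9, subunits of the transcription factor ISGF3, and Socs1 and Socs3, feedback inhibitors. Live CD45+ cells were sorted from B16F10 tumors, a mouse melanoma line, grown under the skin of C57BL/6 mice for 14 days, and read out by droplet single-cell RNA sequencing. The control group was Usp18f/f, with loxP-flanked Usp18 alleles and no Cre. The other group, Usp18f/f LysM-Cre, shares those alleles and carries Cre under the Lyz2 promoter, which is active in macrophages, monocytes and neutrophils. Each group is 1 library made from 4 pooled tumors, so no spread between mice can be given, and no test between the groups was possible. Intervals below are 95% intervals for the counting of UMIs (single tagged transcripts) only.

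Type I interferons bind a receptor of IFNAR1 and IFNAR2, which carry the kinases TYK2 and JAK1. The kinases phosphorylate STAT2 and another STAT protein, and these join IRF9 to form ISGF3, which binds the interferon-stimulated response element and switches on antiviral genes. SOCS1 and SOCS3 are made in response to cytokines and shut JAK signalling off, and USP18 restrains the receptor at IFNAR2. In tumors, dendritic cells and macrophages respond to type I interferon, and this response is tied to T-cell priming.

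The stretches before the transcription starts are shown for Stat2 and Socs1, the members that differed most between the libraries, since these hold the core of the interferon-stimulated response element. All 8 members had an entry in the RefSeq promoter table (GRCm38.p6), and the 250 bases before each listed start were searched on both strands. Capitals mark GAAANNGAAA, the response element core. In Stat2 they also cover an overlapping match to GAAANGAAA, a shorter-spaced variant added after the data had been seen. The Stat2 stretch is chr10:128270248-128270497 on the plus strand, and its matches lie on the opposite strand, so the capitals read TTTC.
Stat2: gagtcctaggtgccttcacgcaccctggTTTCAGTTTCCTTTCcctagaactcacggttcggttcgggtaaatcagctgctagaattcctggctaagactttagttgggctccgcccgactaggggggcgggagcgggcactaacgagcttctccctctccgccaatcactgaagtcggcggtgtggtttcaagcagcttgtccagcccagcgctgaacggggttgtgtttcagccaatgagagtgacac
The Socs1 stretch is chr16:10785537-10785786 on the minus strand and holds 2 overlapping matches, 73 and 67 bases before the start.
Socs1: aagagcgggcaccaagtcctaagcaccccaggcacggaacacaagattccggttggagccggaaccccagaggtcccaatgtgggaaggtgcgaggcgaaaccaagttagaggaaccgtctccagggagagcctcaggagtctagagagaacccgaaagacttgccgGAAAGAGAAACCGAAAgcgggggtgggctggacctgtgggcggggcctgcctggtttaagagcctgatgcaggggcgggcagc
Of 32851 promoter windows of this length, 2.98% held GAAANNGAAA and 2.68% held GAAANGAAA. The core of the gamma-activated site, TTCNNNGAA, is bound by STAT dimers and was held by 7.02% of windows. It is shown for Ifnar2 (chr16:91372559-91372587, plus strand) and Socs3 (chr11:117969502-117969530, minus strand) with 10 bases on either side. The Socs3 match precedes the listed RefSeq start. It lies inside the gene span given below from GENCODE, a second annotation, which starts further upstream.
Ifnar2: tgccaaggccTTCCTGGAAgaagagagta
Socs3: gaaaccagccTTCTTAGAAgggagggggg
No match to these letters was found in the windows of Ifnar1, Jak1, Tyk2 or Irf9, the last of which has 2 listed starts. Both Irf9 windows also lie inside the GENCODE gene span given below. The bases before that span were not searched, so the lack of a match does not cover them. A match is a description of the letters and not a binding site.

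Usp18, the targeted gene, went against the label. In cells gated as mononuclear phagocytes it measured 18.4 CPM (UMIs of the gene per 1000000 UMIs of the class) in the control library, against 90.1 CPM in the other, which is therefore called the library labelled knockout. Lyz2, whose locus carries Cre, went with the label, at 9234 and 17.6 CPM. The libraries also differed in the sex of their cells. Of cells with UMIs of Xist or of Y-linked genes but not of both kinds, 36.5% carried Xist in the control library, against 86.1% in the library labelled knockout. Counts of transcript 3' ends do not tell whether the floxed exons were present in Usp18 transcripts. The control library had 7754 barcodes and 43412346 UMIs (median 2600), and the library labelled knockout had 6063 barcodes and 48167632 UMIs (median 4455). After filters and doublet removal 6646 and 5451 cells were kept, of which 6291 and 5041 were gated to a class by markers. Ptprc, which encodes CD45, had a UMI in 86.3% and 81.4% of kept cells, but in 23.8% and 14.4% of melanoma-like cells. Barcode sequences shared by the libraries numbered 8, and 5 were kept in both.

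In mononuclear phagocyte-like cells (1763 control, 2439 labelled knockout) the receptor and kinase genes stayed within a narrow band, while Stat2 and Socs1 were more than 2-fold higher in the library labelled knockout. Irf9 and Socs3 were higher by smaller amounts. The mean log2 ratio, labelled knockout over control on the log2(CPM + 5) scale, was -0.08 (-0.14 to -0.03) for the 4 receptor and kinase genes. It was 0.67 (0.59 to 0.76) for Stat2 and Irf9, and 0.68 (0.58 to 0.78) for Socs1 and Socs3. The difference between the ISGF3 pair and the receptor and kinase genes was 0.76 (0.65 to 0.86), and that between the SOCS pair and the same genes was 0.77 (0.65 to 0.88). The counting interval lay above 0 for 4 of the 8 members (Stat2, Irf9, Socs1 and Socs3) and below 0 for 3 (Ifnar1, Jak1 and Tyk2). Among all genes with at least 20 UMIs in this class, 17.2% had an interval above 0 and 22.4% below 0. A log2 ratio of at least 1 was reached by 2 members, against 0.907% of all genes. None reached -1, which 0.0932% of all genes did. The median log2 ratio over all 11803 genes was -0.03.

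The cells behind these values differed between the libraries in more than the label. Xist cells made up 33.0% of the mononuclear phagocyte-like cells of known kind in the control library, against 83.4% in the library labelled knockout. Among marker lists of other cells, the summed level of the 8 erythroid genes was 1.13 CPM in the control library, where 3 of them were at 0, against 229 CPM in the library labelled knockout, where none was at 0. The 8 neutrophil genes summed to 185 and 74.0 CPM, and none of these was at 0 UMIs in either library. Median depth was similar, at 6647 and 6375 UMIs per cell. The part of these values in the member differences was not tested, except for the split by sex below. Since cells are weighted by their UMIs, more cells with a high level and a higher level in every cell cannot be told apart in a class sum. No cell supplied more than 4.403% of a member's UMIs in this class in either library.

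Ifnar1 (chromosome 16, 91485238 to 91507441, plus strand, GRCm38) encodes the receptor chain that binds TYK2. It measured 129.95 CPM (124 to 136) in control mononuclear phagocyte-like cells and 119 CPM (115 to 124) in the library labelled knockout. Macrophage-like cells, split off by C1q and related markers, carried this difference, with 127 and 105 CPM and a log2 ratio of -0.26 (-0.37 to -0.15). In monocyte-like cells, split off by Ccr2, Vcan and related markers, Ifnar1 was at 136 and 141 CPM and the interval of the log2 ratio spanned 0 (-0.08 to 0.18). The ratio in monocyte-like cells exceeded that in macrophage-like cells by 0.31 (0.14 to 0.48).

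Ifnar2 (chromosome 16, 91372783 to 91405589, plus strand) encodes the chain that binds JAK1 and is the docking site of USP18. Its levels were the closest match of any member, 98.8 CPM (93.7 to 104) and 102 CPM (97.6 to 106), with a log2 ratio of 0.04 (-0.05 to 0.13). Macrophage-like cells held 96.4 and 96.1 CPM, and monocyte-like cells 102 and 111 CPM. Ifnar2 overlaps the readthrough gene Gm21970 on the same strand, which had 0 UMIs in both libraries.

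Both receptor genes peaked in pDC-like cells, the plasmacytoid dendritic cells known as interferon producers. In the control library these held 244 CPM of Ifnar1 (208 to 284) and 235 CPM of Ifnar2 (200.2 to 274), apart from the next class in each order. The 90 pDC-like cells of the library labelled knockout held 279 and 234 CPM. Below them in the control library, the intervals of NK-cell-, monocyte-, neutrophil- and macrophage-like cells overlapped from neighbour to neighbour, at 148, 136, 132 and 127 CPM of Ifnar1. Ifnar2 was lowest in migratory DC-like cells of the control library, at 14.98 CPM (7.74 to 26.2), and in melanoma-like cells, at 19.6 CPM (16.6 to 23.0). Migratory DC-like cells were also the class in which Ifnar2 was higher in the library labelled knockout, at 32.6 CPM (21.99 to 46.5). That value rests on 12 and 30 UMIs, and the log2 ratio was 0.91 (0.15 to 1.67). In B-cell-like cells Ifnar2 was lower, 46.1 against 30.1 CPM, with a log2 ratio of -0.54 (-1.07 to -0.02).

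**Figure D1:**
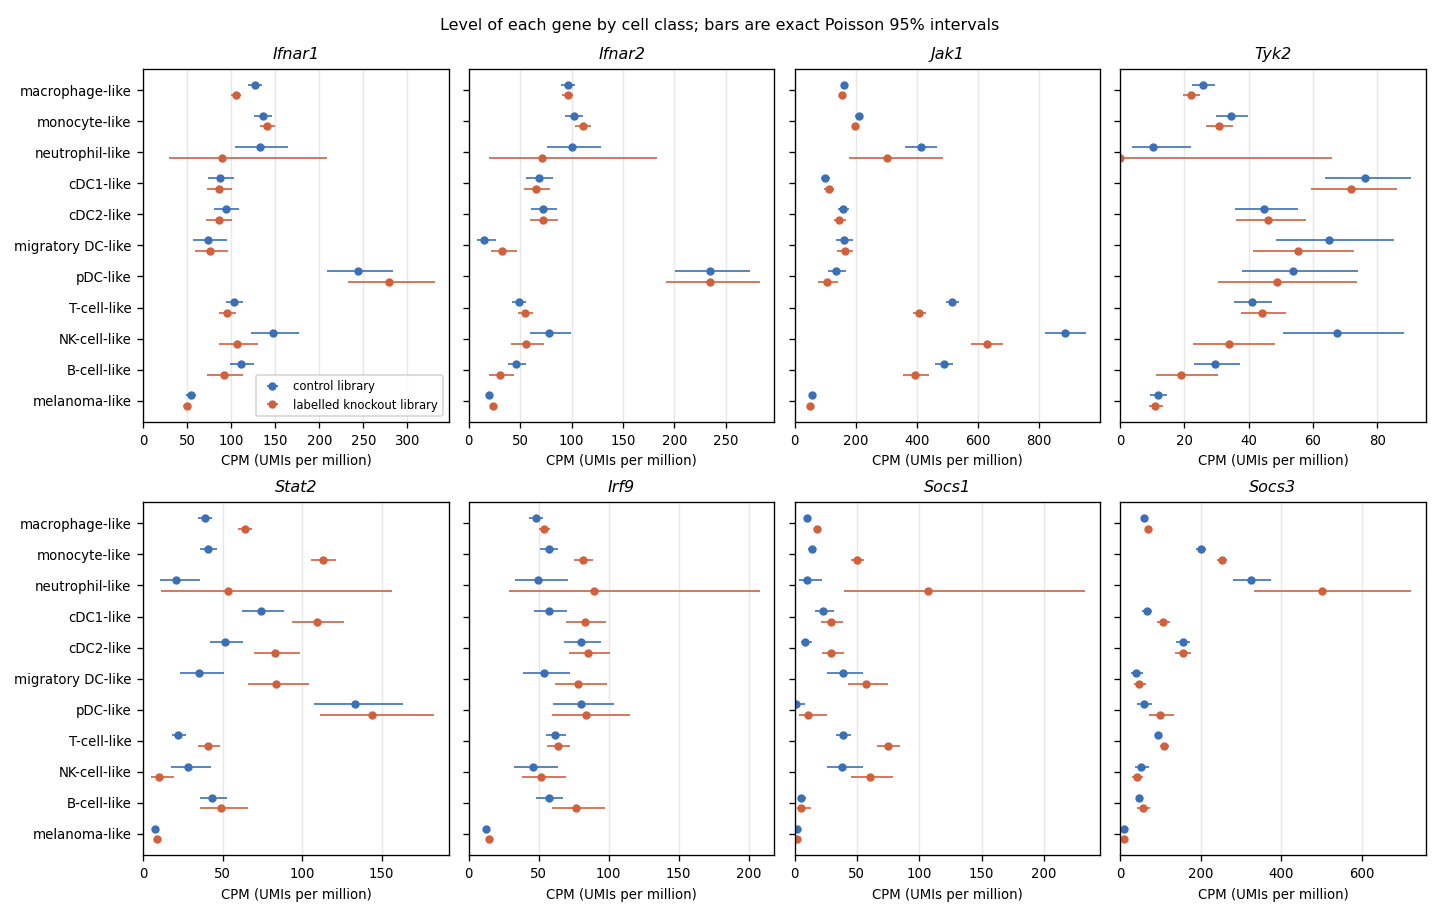
Level of each of the 8 genes (CPM, horizontal axis from 0) in 11 marker-gated cell classes, for the control library (blue) and the library labelled knockout (orange), with exact Poisson 95% intervals. Ifnar1 and Ifnar2 peak in pDC-like cells at 244 and 235 CPM in the control library, Jak1 in NK-cell-like cells at 884 CPM, and Stat2 and Socs1 separate the libraries in monocyte-like cells.

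Jak1 (chromosome 4, 101152367 to 101265282, minus strand) encodes a kinase shared by many cytokine receptors. Its order over classes put lymphocytes on top. In the control library it was highest in NK-cell-like cells, at 884 CPM (820 to 953), followed by T-cell-like cells at 515 CPM (495 to 536) and B-cell-like cells at 488 CPM (460.0 to 517), whose intervals overlapped. Macrophage-like cells held 161 and 156 CPM in the control and labelled knockout libraries, and monocyte-like cells 211 and 198 CPM. T-cell-, NK-cell- and B-cell-like cells had less Jak1 in the library labelled knockout. T-cell-like cells held 408 CPM (log2 ratio -0.33, -0.42 to -0.24), NK-cell-like cells 628 CPM (-0.49, -0.65 to -0.33), and B-cell-like cells 395 CPM (-0.30, -0.47 to -0.13). In NK-cell-like cells with a Y-linked UMI the log2 ratio of Jak1 was 0.14 (-0.25 to 0.52). The 8 macrophage marker genes summed in NK-cell-like cells to 45.8 CPM in the control library, against 726 CPM in the library labelled knockout, and their part in the Jak1, Tyk2 and Stat2 values of this class was not tested. Among T-cell-like cells, those with Cd8a or Cd8b1 and no Cd4 or Foxp3 were at 530 and 403 CPM. Foxp3+ cells were at 412 and 298 CPM, and both subsets had intervals below 0. Those with Cd4 and no Foxp3, Cd8a or Cd8b1 were at 459 and 503 CPM, with an interval spanning 0 (-0.14 to 0.41).

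Tyk2 (chromosome 9, 21104068 to 21131243, minus strand) encodes the kinase bound to IFNAR1. It was at 29.9 CPM (27.1 to 32.9) and 25.7 CPM (23.6 to 28.0) in mononuclear phagocyte-like cells, a log2 ratio of -0.18 (-0.34 to -0.03). Its highest levels were in cDC1-like cells, the cross-presenting dendritic cells, at 76.2 and 71.9 CPM, where the libraries' intervals overlapped. The cDC1-like interval also overlapped that of the next class in each library. This was NK-cell-like cells (67.4 CPM) in the control library and migratory DC-like cells (55.4 CPM) in the other. In NK-cell-like cells Tyk2 was lower in the library labelled knockout, 67.4 against 33.8 CPM, from 53 and 30 UMIs (-0.90, -1.48 to -0.33). The antisense gene 1700084C06Rik covers most of Tyk2 but had 7 and 5 UMIs in the libraries.

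Stat2 (chromosome 10, 128270559 to 128292849, plus strand) encodes a STAT protein best known as part of ISGF3 and is itself an interferon-inducible gene. Mononuclear phagocyte-like cells held 39.3 CPM (36.1 to 42.7) in the control library, against 85.5 CPM (81.7 to 89.6) in the library labelled knockout, 2.18-fold higher (1.98 to 2.40). In the pooled cells with a Y-linked UMI, a different mix of subclasses in each library, the levels were 32.1 and 41.2 CPM. Within them the log2 ratio was 0.11 (-0.20 to 0.43) in macrophage-like and 1.02 (0.50 to 1.53) in monocyte-like cells. In cells of all kinds the level was nearly the same in both control subclasses, 38.7 CPM in macrophage-like and 40.9 CPM in monocyte-like cells. In the library labelled knockout they parted, at 63.9 CPM (59.6 to 68.5) and 113 CPM (106 to 121). The log2 ratio was 0.66 (0.49 to 0.83) in macrophage-like cells and 1.37 (1.17 to 1.56) in monocyte-like cells, a difference of 0.71 (0.45 to 0.97). Monocyte-like cells of the library labelled knockout overlapped in Stat2 with cDC1-like cells (109 CPM), which stood above them in the control library, at 74.4 CPM.

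Outside mononuclear phagocytes, Stat2 was higher in the library labelled knockout in cDC1-like (74.4 and 109 CPM), cDC2-like (51.6 and 83.1 CPM), migratory DC-like (35.0 and 83.7 CPM) and T-cell-like cells (21.97 and 41.0 CPM). The migratory DC-like value had the largest log2 ratio of these, 1.15 (0.59 to 1.71). In pDC-like cells, where the control level was highest, it was 133 CPM (108 to 164) and 144 CPM (111 to 183), so the libraries overlapped. NK-cell-like cells went the other way, with 28.0 CPM (17.5 to 42.4) and 10.1 CPM (4.63 to 19.2), a log2 ratio of -1.12 (-1.94 to -0.31). That difference rests on 22 and 9 UMIs.

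Irf9 (chromosome 14, 55603571 to 55610030, plus strand) encodes the DNA-binding subunit of ISGF3. It differed by less than Stat2. Mononuclear phagocyte-like cells held 51.0 CPM (47.4 to 54.9) and 64.6 CPM (61.2 to 68.1), a ratio of 1.27 (1.16 to 1.39). In the pooled cells with a Y-linked UMI the order was the reverse, 47.1 and 40.4 CPM, with an interval spanning 0. Those cells were a different mix of subclasses in each library. Within them the log2 ratio was -0.31 (-0.60 to -0.02) in macrophage-like and 0.38 (-0.13 to 0.89) in monocyte-like cells. Monocyte-like cells of all kinds held 57.2 and 81.8 CPM, with a log2 ratio of 0.48 (0.30 to 0.66). Macrophage-like cells of all kinds held 47.9 and 54.0 CPM, and their interval reached 0 (-0.01 to 0.32). Irf9 was also higher in cDC1-like cells of the library labelled knockout, 57.3 against 82.9 CPM, and in CD4+ T-cell-like cells without Foxp3, 76.7 against 143 CPM from 48 and 46 UMIs. Its control levels were the most even of the 8 members across immune classes, from 45.8 CPM in NK-cell-like to 80.4 CPM in cDC2-like cells, and every neighbour in that order overlapped. Melanoma-like cells stood apart below, at 12.1 CPM. The 3' end of Rnf31 overlaps the start of Irf9 by 123 bases on the same strand, so reads of the pair in those bases cannot be told apart.

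Socs1 (chromosome 16, 10782240 to 10785536, minus strand) encodes an inhibitor that binds JAK kinases and is induced by interferons. It had the largest difference of the 8 members, from a low level. Mononuclear phagocyte-like cells held 11.3 CPM (9.58 to 13.2) in the control library, against 31.0 CPM (28.6 to 33.4) in the library labelled knockout, 2.75-fold higher (2.31 to 3.29). This difference was not seen in the pooled cells with a Y-linked UMI, at 10.9 and 11.5 CPM (log2 ratio 0.05, -0.31 to 0.42). Those cells were a different mix of subclasses in each library. Within them the log2 ratio was 0.09 (-0.35 to 0.52) in macrophage-like and 0.49 (-0.29 to 1.26) in monocyte-like cells. In monocyte-like cells of all kinds the levels were 13.8 CPM (10.9 to 17.3) and 50.3 CPM (45.3 to 55.7), from 75 and 369 UMIs. In macrophage-like cells they were 10.2 and 18.3 CPM. The log2 ratios were 1.56 (1.28 to 1.83) and 0.62 (0.36 to 0.88), and they differed by 0.93 (0.56 to 1.31), the widest gap between the subclasses of any member.

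In the control library Socs1 was highest in T-cell-, migratory DC- and NK-cell-like cells, at 39.0, 38.7 and 38.2 CPM with overlapping intervals. T-cell-like cells of the library labelled knockout held 75.0 CPM (66.5 to 84.3), a log2 ratio of 0.86 (0.62 to 1.11). Those with Cd8a or Cd8b1 and no Cd4 or Foxp3 had 32.3 and 69.6 CPM in the control and labelled knockout libraries. In T-cell-like cells the 8 mononuclear phagocyte markers summed to 19.2 and 93.5 CPM, against 2883 and 3097 CPM in mononuclear phagocyte-like cells. In cDC2-like cells Socs1 stood at 8.51 and 29.6 CPM, from 16 and 47 UMIs (1.36, 0.79 to 1.92). In pDC-like cells it had 1 and 5 UMIs, too few for a ratio, although these cells had the highest Ifnar1, Ifnar2 and Stat2 levels of the control library.

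Socs3 (chromosome 11, 117966079 to 117970047, minus strand) encodes an inhibitor best known for receptors that signal through gp130. Its 3 highest levels were in myeloid classes. In the control library neutrophil-like cells held 325 CPM (281 to 375), monocyte-like cells 200.03 CPM (188 to 212), and cDC2-like cells 155 CPM (138 to 174), and these stood apart from each other. T-cell-like cells followed at 93.9 CPM (85.3 to 103), above macrophage-like cells at 58.9 CPM (53.6 to 64.5). Mononuclear phagocyte-like cells held 117 CPM (111 to 123) and 137 CPM (132 to 142), a ratio of 1.17 (1.10 to 1.25). Monocyte-like cells of the library labelled knockout held 253 CPM (242 to 265), a log2 ratio of 0.33 (0.23 to 0.44), and macrophage-like cells 67.9 CPM (0.19, 0.04 to 0.34). The small macrophage difference lost its sign with a limit of 5% mitochondrial UMIs, where the log2 ratio was -0.075. In Y-linked cells the direction turned, to -0.51 (-0.69 to -0.34) in mononuclear phagocyte-like and -0.70 (-0.97 to -0.43) in macrophage-like cells. It did not turn in Y-linked monocyte-like cells, at 0.58 (0.33 to 0.82). In cDC1-like cells Socs3 was at 66.7 and 106 CPM (0.63, 0.31 to 0.95), and in cDC2-like cells at 155 CPM in both libraries.

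**Figure D2:**
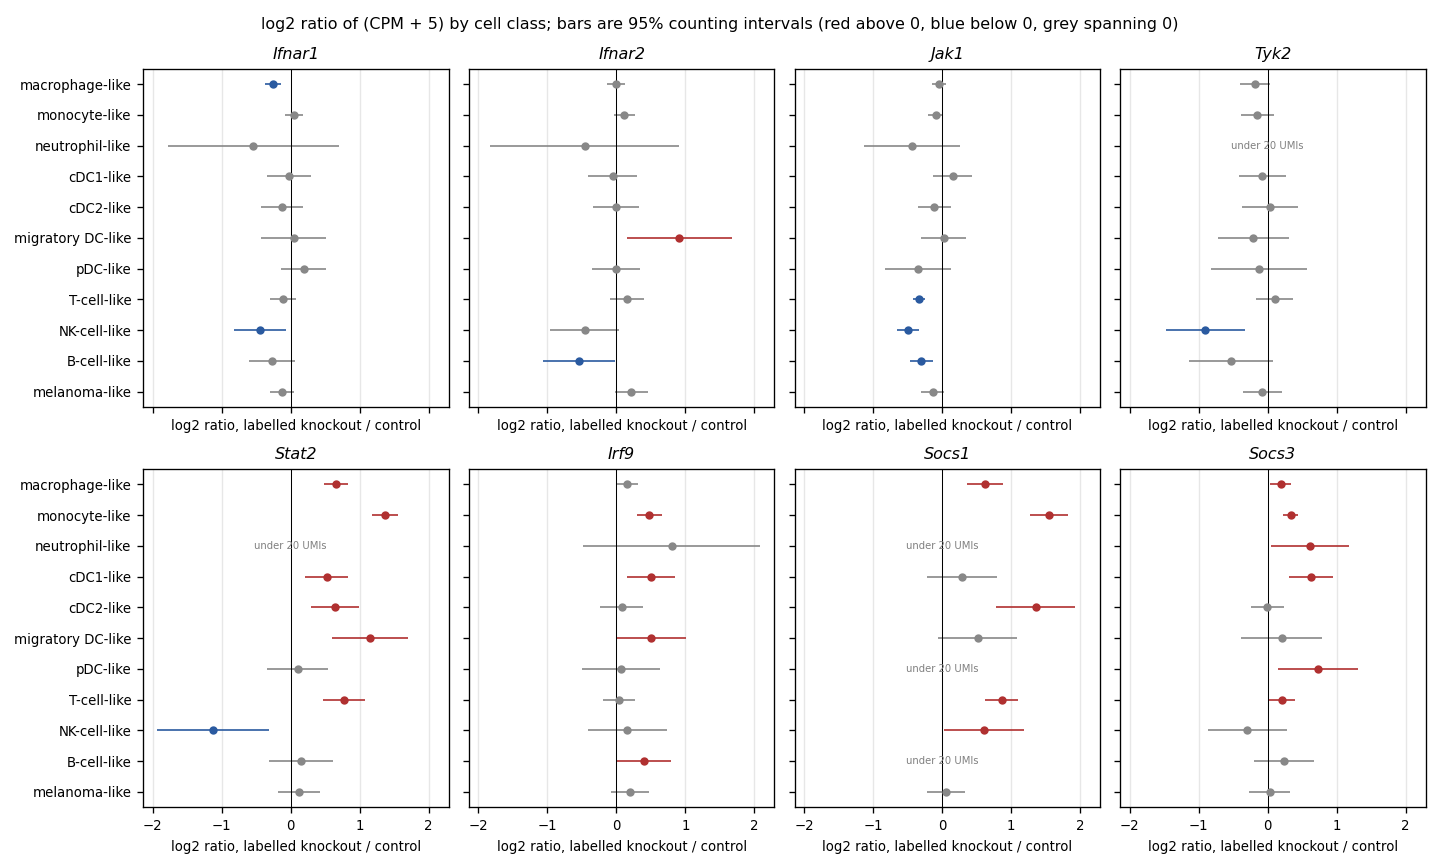
The log2 ratio of (CPM + 5), labelled knockout over control, for each gene in 11 cell classes with 95% counting intervals; red lies above 0, blue below 0 and grey spans 0, and classes with fewer than 20 UMIs are marked. Stat2 is red in 6 classes and blue in NK-cell-like cells at -1.12, while Jak1 is blue in T-cell-, NK-cell- and B-cell-like cells.

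Across the 11 classes, most intervals above 0 belonged to the ISGF3 and SOCS genes. Of the classes with at least 20 UMIs of the gene, the interval lay above 0 in 6 of 10 for Stat2, 4 of 11 for Irf9, 5 of 8 for Socs1 and 6 of 11 for Socs3. For the receptor and kinase genes this held in 1 class, migratory DC-like cells, for Ifnar2, and in 0 classes for Ifnar1, Jak1 and Tyk2. Intervals below 0 were found in 2 classes for Ifnar1, 1 for Ifnar2, 3 for Jak1, 1 for Tyk2 and 1 for Stat2.

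Counted by class, and set against the share of all genes with an interval above and below 0, the members stood as follows. Monocyte-like cells had 4 members above (15.9% of all genes) and 0 below (19.8%). Macrophage-like cells had 3 above (13.8%) and 1 below (16.2%), which was Ifnar1. Among dendritic cells, cDC1-like cells had Stat2, Irf9 and Socs3 above (8.48%) and 0 below (8.74%), and cDC2-like cells had Stat2 and Socs1 above (12.7%) and 0 below (8.24%). Migratory DC-like cells had Ifnar2, Stat2 and Irf9 above (12.6%) and 0 below (6.55%), and pDC-like cells had only Socs3 above (6.12%) and 0 below (7.05%). T-cell-like cells had Stat2, Socs1 and Socs3 above (14.1%) and Jak1 below (18.1%). NK-cell-like cells had Socs1 above (9.73%) and Ifnar1, Jak1, Tyk2 and Stat2 below (15.5%). B-cell-like cells had Irf9 above (6.92%) and Ifnar2 and Jak1 below (10.6%). Neutrophil-like cells, which numbered 472 and 29, had Socs3 above (7.53%) and 0 below (5.83%). No member was above (9.92%) or below (11.2%) in melanoma-like cells, in which median depth was 50409 UMIs in the control library, against 2542 in the other.

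The genes that ISGF3 is known to switch on differed far more than its subunits. Of 12 known targets, all were higher in mononuclear phagocyte-like cells of the library labelled knockout, and 11 had a log2 ratio of at least 1, with a median of 2.58. Rsad2, an antiviral enzyme, had the largest difference, from 41.6 to 591 CPM (3.68), followed by Isg15, a ubiquitin-like modifier, from 68.0 to 658 CPM (3.18), Ifit3 (3.17), Ifit2 (2.82) and Ifit1 (2.78). Ly6e had the smallest, 0.70. In T-cell-like cells 10 of 12 passed a log2 ratio of 1, where 2.01% of all genes did, and the median was 1.21. Against these, the Stat2 ratios were 1.03 and 0.77.

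In mononuclear phagocyte-like cells, the other listed JAK-using receptor chains, kinases and STAT genes stayed under a log2 ratio of 1 in size, as did nearly all genes. Of 8 cytokine receptor chains measured there, 0 reached a log2 ratio of 1 in either direction, and the median was 0.03. Among all genes 0.907% reached 1 and 0.0932% reached -1. The interval lay above 0 for 3 of the chains (17.2% of all genes) and below 0 for 2 (22.4%). The largest differences were in Ifngr1, the interferon-gamma receptor chain, lower at 216 and 140 CPM (-0.61), and Il6ra, the interleukin-6 receptor, lower at 112 and 81.1 CPM (-0.44). Il2rg (0.31), Il6st (0.19) and Il10rb (0.14) were slightly higher. Of 7 further kinase and STAT genes, 0 reached a log2 ratio of 1 and the median was -0.12. The largest values were -0.20 for Stat5b, -0.15 for Stat6, -0.13 for Stat5a, -0.12 for Stat4 and 0.11 for Stat3. Their interval lay above 0 for 1 gene and below 0 for 2. In T-cell-like cells 1 of 8 chains passed a log2 ratio of 1, which 2.01% of all genes did. This was Csf2rb, a chain of the GM-CSF receptor, which went from 6.89 to 37.0 CPM (1.82, 1.46 to 2.18). The mononuclear phagocyte markers were also higher in this class, as given above, and their part in this value was not tested. Ifngr2, the other interferon-gamma receptor chain, stood at 11.2 and 19.3 CPM there (0.58), and Stat5b at 113 and 77.4 CPM (-0.51), while 0 of 7 kinase and STAT genes passed a log2 ratio of 1.

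Among 16 other negative regulators only Usp18 passed a log2 ratio of 1 in mononuclear phagocyte-like cells (2.02), where 0.907% of all genes did, and the median was -0.06. Cish (12.7 and 19.2 CPM, 0.45) and Socs2 (3.90 and 7.09 CPM, 0.44), both SOCS-family genes induced through STAT5, came next, while Socs4 (-0.24) and Sh2b3 (-0.23) were lower. In T-cell-like cells Cish stood at 61.0 and 106 CPM (0.74), and Socs2 at 18.1 and 34.0 CPM (0.76). The ligands themselves were scarce. Of 10 interferon genes, 8 had 0 UMIs in mononuclear phagocyte-like cells of both libraries, which allows up to 0.213 CPM in the control library. Ifnb1, encoding interferon beta, had 2 UMIs in the control library, against 28 in the other, and Ifng had 7 and 28. Ifng, the type II interferon, was in T-cell-like cells at 98.2 CPM (89.4 to 108) and 202 CPM (188 to 217).

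Within each library, members were read out against the number of UMIs of the 12 targets in mononuclear phagocyte-like cells thinned to 1000 UMIs, with bins chosen after the data had been seen. Cells with 11 or more target UMIs made up 1.03% of the control cells (18 cells) and 12.1% of those labelled knockout (283 cells). Cells with 0 to 2 made up 83.3% and 48.8%. In the library labelled knockout Stat2 went from 42.3 CPM in the lowest bin through 70.2 and 153 to 292 CPM in the highest. In the control library it went from 30.2 through 60.1 and 146 to 418 CPM (306 to 557), the last from 46 UMIs of 18 cells. That interval overlapped the one of the other library in the highest bin, 292 CPM (268 to 316). At equal target UMIs the libraries were thus close in the middle bins, with overlapping intervals at 3 to 5 and at 6 to 10 target UMIs. In the lowest bin the control interval (27.1 to 33.5 CPM) lay below that of the library labelled knockout (38.6 to 46.2 CPM).

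Socs1 was also higher in cells with more target UMIs. In the library labelled knockout it went from 13.01 through 18.8 and 43.6 to 153 CPM (136 to 171), and in the control library from 9.72 through 16.6 to 32.0 CPM. The highest control bin held 5 Socs1 UMIs in its 18 cells, 45.4 CPM (14.8 to 106). These few cells were lower in Socs1 than those of the other library, while the Stat2 intervals overlapped. Among the monocyte-like cells of that bin the Socs1 intervals also overlapped, at 81.2 CPM (29.8 to 177) and 169 CPM (147 to 194). The macrophage-like cells had 0 Socs1 UMIs in the control library (up to 73.2 CPM), against 129 CPM (103 to 161) in the other. Irf9 went in the library labelled knockout from 50.3 to 113 CPM, and Socs3 from 116 to 198 CPM in the bin of 6 to 10 target UMIs and 185 CPM in the highest. In the pooled cells of that library the receptor and kinase genes changed less across the bins. Ifnar1 went from 111 to 158 CPM, Ifnar2 from 96.8 to 119 CPM, Jak1 from 163 to 190.0 CPM and Tyk2 from 23.3 to 34.5 CPM.

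**Figure D3:**
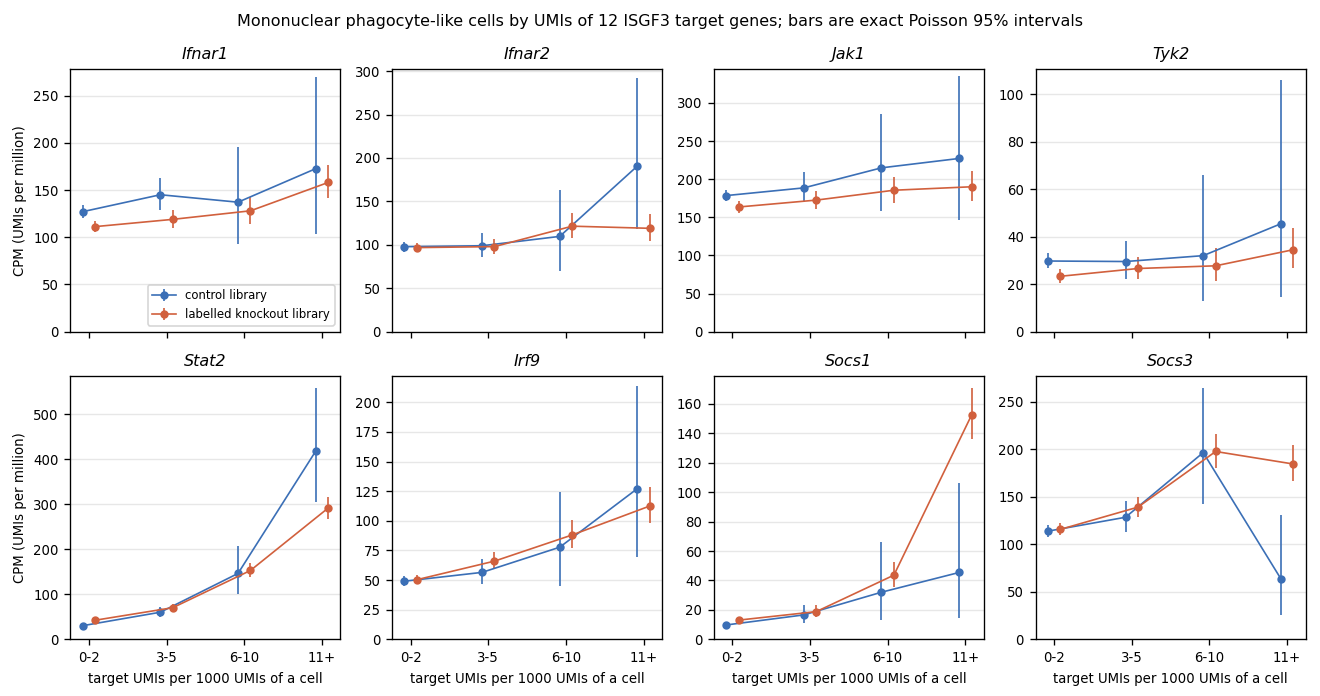
CPM of each gene (vertical axis from 0) in mononuclear phagocyte-like cells binned by UMIs of 12 ISGF3 target genes per 1000 UMIs of a cell, for the control library (blue) and the library labelled knockout (orange), with exact Poisson 95% intervals. In the library labelled knockout Stat2 goes from 42.3 to 292 CPM and Socs1 from 13.01 to 153 CPM; the highest control bin holds 18 cells.

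The sex of the cells, which the libraries hold in different proportions, moved with several of the differences. In mononuclear phagocyte-like cells with Xist (422 control, 1678 labelled knockout) the log2 ratios were 1.07 for Stat2, 0.29 for Irf9, 1.55 for Socs1 and 0.58 for Socs3. In those with a Y-linked UMI (857 and 335) they were 0.32 (0.06 to 0.57), -0.20 (-0.44 to 0.05), 0.05 (-0.31 to 0.42) and -0.51 (-0.69 to -0.34). These pooled values compare different mixes, since the Y-linked cells were 389 macrophage-like and 412 monocyte-like in the control library, against 236 and 84 in the other. Socs1 in Xist cells stood at 9.88 and 38.4 CPM. The mean over the SOCS pair was therefore 1.06 in Xist cells and -0.23 in Y-linked cells, and that over the ISGF3 pair was 0.68 and 0.06. The mean over the receptor and kinase genes was -0.08 and -0.18.

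The split by sex differed between the subclasses. In macrophage-like cells Stat2 was at 38.5 and 74.0 CPM in Xist cells but at 30.9 and 33.9 CPM in Y-linked cells. In monocyte-like cells it was higher in both kinds, at 51.4 and 113 CPM in Xist cells and at 33.7 and 73.4 CPM in Y-linked cells, the latter from 88 and 36 UMIs (1.02, 0.50 to 1.53). Irf9 in Y-linked cells had a log2 ratio of -0.31 (-0.60 to -0.02) in macrophage-like and 0.38 (-0.13 to 0.89) in monocyte-like cells, against 0.30 and 0.18 in Xist cells. Socs1 in Y-linked cells had 0.09 (-0.35 to 0.52) in macrophage-like and 0.49 (-0.29 to 1.26) in monocyte-like cells, against 1.17 and 1.58 in Xist cells. The monocyte-like value rests on 38 and 11 UMIs. The 11 UMIs came from 4 cells, and the top cell held 45.5% of them. In Y-linked monocyte-like cells the log2 ratios of Stat2, Irf9, Socs1 and Socs3 were thus all above 0, with intervals above 0 for Stat2 and Socs3. Xist shares were 30.9% and 71.4% of macrophage-like cells, and 34.8% and 92.0% of monocyte-like cells. Since tumors were pooled, sex and the individual mouse cannot be told apart.

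**Figure D4:**
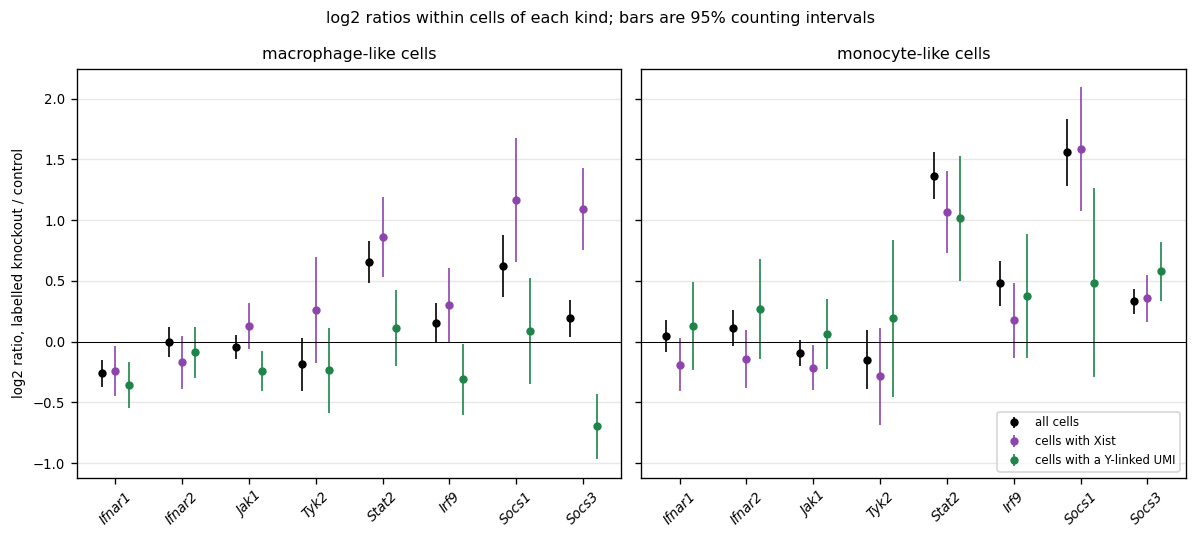
The log2 ratio of (CPM + 5), labelled knockout over control, for the 8 genes in macrophage-like (left) and monocyte-like (right) cells, for all cells (black), cells with Xist (purple) and cells with a Y-linked UMI (green), with 95% counting intervals. In macrophage-like cells Socs3 stands at 1.09 in Xist cells and -0.70 in Y-linked cells, while Stat2 in monocyte-like cells is above 0 in both kinds.

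The differences were not spread evenly over the clusters of mononuclear phagocytes, which were made without the members, the 12 targets and several families of interferon-inducible genes, and examined after the class values had been seen. Stat2 was higher in the library labelled knockout in each of the 6 clusters with more than 100 mononuclear phagocyte-like cells in both libraries, 1 of which, led by Mgl2, Ear2 and Cxcl9, was left unnamed by its markers (61.2 and 88.6 CPM), with log2 ratios from 0.35 (0.12 to 0.59) to 1.65 (1.34 to 1.96). The lowest ratio was in the cluster led by Igf1, Gas6 and Vcam1, where the levels were 41.2 and 54.0 CPM. The highest was in the cluster led by Dmkn, Arg1 and Thbs1, at 24.5 and 87.6 CPM. In the library labelled knockout Socs1 was highest in a cluster led by Lipg, the chemokine gene Ccl12 and the interferon-inducible gene Ifit3b, where it had 4 UMIs in the control library (3.88 CPM) and 292 in the library labelled knockout (64.7 CPM), a log2 ratio of 2.97 (2.34 to 3.61). That cluster held 7.42% and 19.8% of macrophage-like cells, and 3.92% and 15.1% of monocyte-like cells. In a cluster of cycling cells led by Prr11 and Prc1, Socs1 was at 7.88 and 7.13 CPM. Ifnar1 was lower in the Igf1 cluster (137 and 94.7 CPM), and its interval spanned 0 in the other 5.

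The genes whose levels were most like each member were sought over 20 class and library pairs and 6450 genes, by Pearson's r of log2(CPM + 5). The pairs share libraries and depth, so these are descriptions. Ifnar1 was most like Ifnar2 (r = 0.86), followed by Rilpl2 and Mef2a. Ifnar2 was most like Lims1, Lair1 and Mknk1 (0.91, 0.90 and 0.90). Jak1 was most like Arhgef3, Pde2a and Whsc1l1 (0.93 each). Tyk2 was most like Psme1, Fam98c and Fnbp1 (0.92, 0.92 and 0.91). Stat2 was most like Tmem219 and Tor3a (0.88 and 0.84), and reached 0.80 with Irf9. Irf9 was most like AY036118, H2-T23 and Trim30a (0.94, 0.94 and 0.93). Socs1 was most like Nr4a2, Mbd2 and Myl6 (0.86, 0.86 and 0.85), and Socs3 was most like Fxyd5, Picalm and Cdk2ap2 (0.91 each). Socs1 had r = 0.02 with Ifnar1 and -0.02 with Ifnar2.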

How the data were processed

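The authors deposited raw UMI counts per gene and barcode, made with Cell Ranger 3.0.1 and the mm10 build, per the submitters' processing notes. Whether counting used strand is not given in the sources used here. Barcodes under 200 genes or over 10% mitochondrial UMIs were dropped, and the highest Scrublet scores (scanpy 1.11.5) were removed at 0.8% per 1000 barcodes. A cell took the class with the most distinct markers of 8, at least 2, and tied cells were left out. UMIs were summed per library and class to CPM, with exact Poisson intervals (scipy 1.17.1). Ratios used a pseudocount of 5 CPM and at least 20 UMIs over both libraries, with delta-method intervals on the log2 scale and exact conditional binomial intervals for plain ratios. The code was tested on simulated data. All members are named, with up to 5 genes of each list by size and the 3 most similar genes per member among those with a mean of at least 20 CPM in classes of at least 100 cells. One of the genes similar to Stat2 is not reported here. Clusters (Leiden, resolution 1, leidenalg 0.10.2) served as an alternative. Members and lists were chosen with earlier results of these data known. Gene positions are from GENCODE M21 (GRCm38), which holds 98.7% of the feature identifiers.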

Additional observations from a re-analysis of the deposited data

Results flagged for a closer look

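Socs3 differed in direction between cells of either sex. In mononuclear phagocyte-like cells its log2 ratio, labelled knockout over control, was 0.58 in cells with Xist (102 and 155 CPM) and -0.51 in cells with a Y-linked UMI (122 and 83.8 CPM). In macrophage-like cells it was 1.09 in cells with Xist (35.6 and 81.4 CPM, from 61 and 578 UMIs) and -0.70 in cells with a Y-linked UMI (67.3 and 39.6 CPM, from 313 and 125 UMIs). In monocyte-like cells both kinds were higher in the library labelled knockout, at 0.36 and 0.58. The difference between the kinds of cells was not tested, since each group is 1 library.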

How the results depend on the processing

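Settings were changed singly in 11 ways. The mean log2 ratio of the receptor and kinase genes in mononuclear phagocyte-like cells was -0.08 and ranged from -0.19 with each cell thinned to 1000 UMIs to -0.06, with -0.18 in Y-linked cells. The mean of Stat2 and Irf9 was 0.67, and went to 0.78 with at most 5% mitochondrial UMIs, 0.93 with thinning and 0.061 in Y-linked cells. The mean of Socs1 and Socs3 was 0.68, and went to 0.80 with a pseudocount of 1 CPM, 0.92 with classes from clusters, 0.82 with thinning, 1.06 in Xist cells and -0.23 in Y-linked cells. Changes of sign were listed only for single values whose main interval excluded 0. In Y-linked cells these were Jak1 in NK-cell-like (0.14), Irf9 (-0.20) and Socs3 (-0.51) in mononuclear phagocyte-like, and Socs3 in macrophage-like (-0.70) and cDC1-like cells (-0.58). In Xist cells these were Tyk2 in mononuclear phagocyte-like (0.016), Socs1 in NK-cell-like (-0.047) and Socs3 in T-cell-like cells (-0.069). Irf9 in migratory DC-like cells went to -0.21 with thinning. Socs3 went to -0.075 in macrophage-like, -0.028 in T-cell-like and -0.028 in CD4+ T-cell-like cells with at most 5% mitochondrial UMIs, and to -0.063 in T-cell-like cells with classes from clusters. The causes were not tested. Of the other single values, 989 stayed within counting error and 96 moved beyond it. These include values whose main interval spanned 0 and whose sign changed. An example is Irf9 in macrophage-like cells, with a log2 ratio of 0.16 in the main setting and -0.31 in Y-linked cells. Values with fewer than 20 cells in a library were left out, and clusters gave no macrophage, monocyte or T-cell subset values. No paired analysis was possible because each group has 1 library, and no replicate could be left out. Depth limits values with few UMIs, such as Stat2 in NK-cell-like cells.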
